A study of Mus musculus with 16 samples.

Results

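Ezh2, Pcgf6, Myb and Hmga2 are a set of chromatin and transcription regulators tied to Polycomb repression and to self-renewal of blood stem cells. They were named as a set and found in the table by matching its Ensembl identifiers to gene symbols, which gave 4 of 6288 genes. The rule for the set used no measured value, but earlier results of these data were known when it was named. The choice was thus not blind to the values. All 4 genes passed the filter on low values.

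RNA of mouse bone marrow cells was sequenced in bulk in 16 libraries, 4 replicates in each of 4 groups. The groups were Tet2-deficient (Tet2-/-) cells in physioxia, Tet2-deficient cells in air, wild-type (WT) cells in physioxia and WT cells in air. The design asks how loss of Tet2, an enzyme that oxidises methylated cytosine with oxygen as a substrate, and the oxygen level during collection each move gene expression. All mice were labelled C57Bl/6J, were aged 3 to 4 months and included both sexes. In every group marrow was taken in a chamber at 3% oxygen and enriched there for lineage-negative, Kit-positive, Sca1-positive (LSK) cells by depletion and magnetic selection, so the air cells had also begun in low oxygen. Physioxia cells stayed in the chamber, and air cells spent 6 hours in room air, at about 21% oxygen, before their RNA was taken. No holding time is given here for the physioxia cells, and the part of holding time in the oxygen differences was not tested. The labels do not say how many mice gave each library or which exons of Tet2 are lost. They call the replicates matched biological replicates, and the p-values measure the spread between these libraries.

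Polycomb proteins keep genes silent through histone marks. Polycomb repressive complex 2 (PRC2) methylates histone H3 at lysine 27, and Ezh2 is its main catalytic subunit in dividing cells. Polycomb repressive complex 1 (PRC1) ubiquitinates histone H2A, and each of its forms is named for the Pcgf protein it holds. Pcgf6 defines the variant form that also contains the DNA-binding proteins E2f6 and Mga. Myb is a transcription factor that blood stem and progenitor cells need to proliferate and to keep an undifferentiated state. Hmga2 is a DNA-bending chromatin protein that is high in fetal blood stem cells, promotes their self-renewal and is held down by let-7 microRNAs in adult cells.

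The start regions of the 4 genes are shown because 3 of them rose in WT physioxia relative to WT air while Hmga2 did not. The letters let these stretches be compared. Each sequence is the RefSeq promoter window of GRCm38.p6, read 5′ to 3′ on the gene's strand from 250 bases before the RefSeq start to 50 bases after it. For Pcgf6, Myb and Hmga2 this start is the end of the gene as its coordinates are given below, while for Ezh2 the 2 annotations differ and the whole window lies within those coordinates. The windows are chr6:47594981-47595280 for Ezh2, chr19:47050857-47051156 for Pcgf6, chr10:21160935-21161234 for Myb and chr10:120476420-120476719 for Hmga2, all on the minus strand. Capitals mark matches to E2F letters (TTTGGCG or TTTCCCG) or to hypoxia-inducible factor core letters (ACGTG or GCGTG), each searched on both strands.
Ezh2: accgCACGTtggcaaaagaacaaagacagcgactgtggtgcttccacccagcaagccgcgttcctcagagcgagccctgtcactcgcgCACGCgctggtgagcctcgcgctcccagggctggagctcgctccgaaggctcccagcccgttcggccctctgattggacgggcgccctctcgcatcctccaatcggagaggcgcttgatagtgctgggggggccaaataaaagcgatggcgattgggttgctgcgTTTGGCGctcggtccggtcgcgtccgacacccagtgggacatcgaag
Pcgf6: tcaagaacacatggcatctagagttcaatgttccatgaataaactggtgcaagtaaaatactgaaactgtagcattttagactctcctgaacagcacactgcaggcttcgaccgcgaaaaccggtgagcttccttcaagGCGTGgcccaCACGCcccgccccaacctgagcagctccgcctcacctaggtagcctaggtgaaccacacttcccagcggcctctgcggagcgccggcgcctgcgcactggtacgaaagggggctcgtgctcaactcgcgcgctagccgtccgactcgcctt
Myb: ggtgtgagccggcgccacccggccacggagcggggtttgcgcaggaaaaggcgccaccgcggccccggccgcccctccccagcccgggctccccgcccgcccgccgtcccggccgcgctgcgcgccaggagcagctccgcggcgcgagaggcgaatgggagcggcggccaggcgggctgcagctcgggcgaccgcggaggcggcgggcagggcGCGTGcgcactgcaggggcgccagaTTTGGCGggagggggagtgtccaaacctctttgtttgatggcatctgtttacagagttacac
Hmga2: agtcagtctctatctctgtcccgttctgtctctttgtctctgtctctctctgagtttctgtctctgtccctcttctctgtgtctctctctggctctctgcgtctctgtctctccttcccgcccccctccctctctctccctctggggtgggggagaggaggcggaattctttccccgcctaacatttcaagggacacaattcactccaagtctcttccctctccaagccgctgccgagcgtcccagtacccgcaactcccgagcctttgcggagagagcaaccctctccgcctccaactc

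The Ezh2 window held 1 E2F match, from base 4 to base 10 after the start, and 2 hypoxia-factor matches. The Pcgf6 window held no E2F match and 2 hypoxia-factor matches, at -111 to -107 and -101 to -97. The Myb window held 1 E2F match at -12 to -6 and 1 hypoxia-factor match at -37 to -33. The Hmga2 window held neither and is rich in stretches of alternating C and T. No match overlapped another. Over 32851 mouse promoter windows of the same length, 4.84% held the E2F letters and 43.8% held the hypoxia-factor letters, so the second motif is common. The windows held 31 CpG dinucleotides in Ezh2, 22 in Pcgf6, 40 in Myb and 12 in Hmga2, against a median of 7 over all windows. As many CpGs as Myb were found in 3.91% of windows and as many as Hmga2 in 39.6%. Each of the searched motifs contains a CpG itself, and the shares of windows above were not matched for CpG content. The shares thus do not show whether a match is rare or common among windows as rich in CpG as these. These are matches of letters, and no binding or methylation was measured here.

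The libraries held 7.77 to 15.7 M reads in the table. Tet2 RNA was lower in Tet2-deficient cells in both oxygen conditions, at 482 ± 35.9 normalized counts in Tet2-deficient physioxia and 731 ± 97.4 in WT physioxia, and at 554 ± 54.1 in Tet2-deficient air and 855 ± 157 in WT air (SD, n = 4 each). Its log2 differences were -0.59 ± 0.14 in physioxia (SE, limma adjusted p = 0.00267) and -0.61 ± 0.14 in air (adjusted p = 0.00223). Counts over the whole gene do not show which exons are missing. Of the 10 LSK and leukocyte markers, those in the table, Kit, Procr, Slamf1 and Hlf among them, were present in every library, and Ptprc, Ly6a, Cd34, Flt3 and Mecom were not analysed here. The 6288 genes are a chosen part of the transcriptome, and the sources used here do not give the rule. Of the 6110 tested genes, the smallest unadjusted limma p of the 4 pairwise comparisons was under 0.05 for 97.4%, and 1.59% differed by less than 0.1 log2 units between genotypes in air. Shares of genes called below are shares of this table. In bulk RNA, fewer cells of a type and less RNA per cell cannot be told apart.

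Ezh2 and Myb were called for oxygen in WT cells, Hmga2 between genotypes in both oxygen conditions, and Pcgf6 for oxygen in WT cells and between genotypes in air. In WT cells 3 of the 4 genes, Ezh2, Pcgf6 and Myb, rose in physioxia relative to air, where 4.91% of all tested genes rose and 0.851% fell. In Tet2-deficient cells 0 of the 4 passed the test for oxygen, and 0% of all tested genes did by limma, although 280 had an unadjusted p under 0.05; edgeR called 0 genes and DESeq2 called 8. Between genotypes in physioxia 1 of the 4, Hmga2, was called, and it was higher in Tet2-deficient cells, where 35.9% of all tested genes were called higher and 33.6% lower, 69.4% in all. Between genotypes in air 2 of the 4, Pcgf6 and Hmga2, were called and higher in Tet2-deficient cells, where 42.1% of tested genes were called higher and 37.4% lower, 79.5% in all. Calls between genotypes were thus common in the table, and 1 and 2 of 4 are no larger shares than the table as a whole showed. Calls for oxygen in WT cells were rare, at 5.76% in either direction. Because the set was named with earlier results known, its 3 of 4 is a description and no test against this share. Physioxia and air values within a genotype, and the genotype comparisons, share libraries, so the comparisons are not independent of each other.

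**Figure D1:**
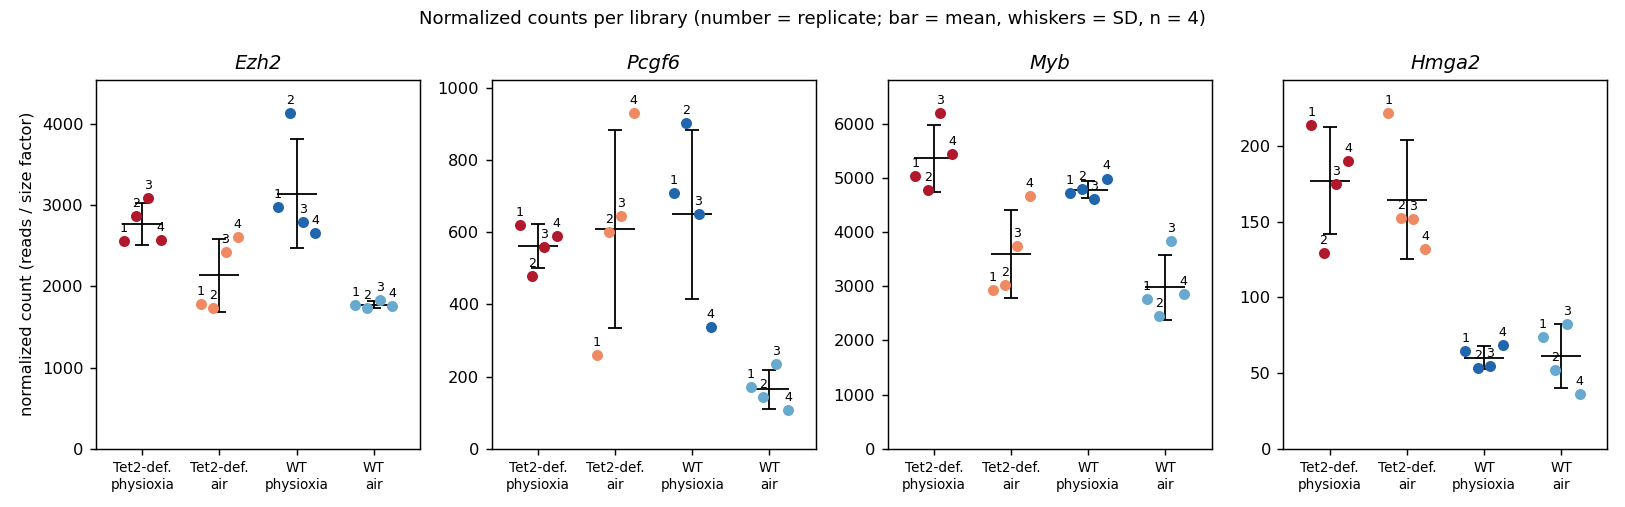
Normalized counts (reads divided by the library's size factor, vertical axis, from 0) of Ezh2, Pcgf6, Myb and Hmga2 in the 16 libraries, with numbered points for replicates, a bar for the mean and whiskers for the SD (n = 4). WT air libraries sit below all WT physioxia libraries for Ezh2, Pcgf6 and Myb, and Tet2-deficient libraries sit above all WT libraries for Hmga2.

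Pcgf6 had the largest oxygen difference of the set in WT cells. The gene (ENSMUSG00000025050, GRCm38 chr19:47033617-47050906, minus strand) overlaps no other annotated gene. Its normalized counts were 621, 479.6, 559 and 591 in Tet2-deficient physioxia and 261, 602, 644 and 930.3 in Tet2-deficient air. They were 709, 902, 652 and 337 in WT physioxia and 172, 144, 235 and 108 in WT air. WT air stood apart as low, since its highest library lay under the lowest library of each other group, while the other 3 groups overlapped one another. Pcgf6 rose in WT physioxia, averaging 650.0 ± 234 against 165 ± 53.4 in WT air (SD, n = 4 each), a log2 difference of 1.94 ± 0.35 (SE, 95% interval 1.21 to 2.68, limma adjusted p = 0.00955), or 3.85-fold. Of all tested genes, 75 had a larger positive difference in this comparison. In Tet2-deficient cells the averages were 563 ± 60.9 in physioxia and 609 ± 274 in air, a log2 difference of 0.02 ± 0.35 (95% interval -0.72 to 0.75, adjusted p = 1). Replicate 1 of Tet2-deficient air, at 261, was the low library of its group, and without it the difference was -0.35.

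WT air was also the low group when genotypes were compared in air. Tet2-deficient air lay above WT air with no overlap, by 1.80 ± 0.35 on the log2 scale (SE, 95% interval 1.06 to 2.54, limma adjusted p = 0.000546), or 3.48-fold. With the mean of the erythroid markers as a covariate this call was lost, at 1.53 with an adjusted p of 0.121. That mean lay higher in every Tet2-deficient air library than in any WT air library, so this fit cannot separate genotype from erythroid level. In physioxia the Pcgf6 values of the genotypes overlapped and differed by -0.13 ± 0.35 (95% interval -0.87 to 0.61, adjusted p = 0.75). The oxygen difference in Tet2-deficient cells minus that in WT cells, the interaction, was -1.93 ± 0.49 (95% interval -2.97 to -0.89, unadjusted p = 0.00122, limma adjusted p = 0.552). It thus missed the threshold over all tested genes by limma, whereas DESeq2 on recovered reads gave -2.04 with an adjusted p of 0.0264. Over the other alternatives and single-library omissions the adjusted p for this interaction lay between 0.0858 and 1.

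Ezh2, the PRC2 methyltransferase, was likewise highest by mean in WT physioxia and lowest in WT air. The gene (ENSMUSG00000029687, GRCm38 chr6:47530139-47595341, minus strand) shares 174 exon bases with the antisense gene Gm26625. Its normalized counts were 2559.8, 2870.2, 3093 and 2567 in Tet2-deficient physioxia and 1783, 1729.7, 2427 and 2609.7 in Tet2-deficient air. They were 2984, 4134, 2789.8 and 2661 in WT physioxia and 1771, 1734, 1838 and 1755 in WT air. The WT air libraries were low and close together, and 2 of the 4 Tet2-deficient air libraries lay at the same level. Ezh2 rose in WT physioxia, with an average of 3142 ± 674 against 1774 ± 45.1 in WT air (SD, n = 4 each), a log2 difference of 0.80 ± 0.15 (SE, 95% interval 0.48 to 1.12, limma adjusted p = 0.00964), or 1.74-fold. Replicate 2 was the highest WT physioxia library, and the difference without it was 0.66.

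In Tet2-deficient cells Ezh2 averaged 2772 ± 258 in physioxia and 2137 ± 447 in air, groups that overlapped. The log2 difference was 0.39 ± 0.15 (95% interval 0.08 to 0.71), with an unadjusted p of 0.0186 and a limma adjusted p of 0.984. The interaction for Ezh2 was -0.41 ± 0.21 (adjusted p = 0.573), so a difference in response between genotypes was not shown. Between genotypes Ezh2 differed by -0.16 ± 0.15 in physioxia (95% interval -0.48 to 0.16, adjusted p = 0.344) and by 0.24 ± 0.15 in air (95% interval -0.07 to 0.56, adjusted p = 0.136). With the erythroid covariate the difference in physioxia was -0.63 and passed (adjusted p = 0.0428), and that in air changed sign, to -0.28 (adjusted p = 0.426). Erythroid means did not overlap between genotypes, so this fit cannot separate genotype from erythroid level.

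Myb was higher in all physioxia libraries than in all air libraries of the same genotype, in both genotypes, and passed the test in WT cells. The gene (ENSMUSG00000019982, GRCm38 chr10:21124935-21160984, minus strand) shares 559 exon bases with the antisense gene Gm26577. Its normalized counts were 5033, 4782, 6194 and 5445 in Tet2-deficient physioxia and 2937, 3031, 3739.9 and 4675 in Tet2-deficient air. They were 4722, 4799, 4619 and 4990.0 in WT physioxia and 2762, 2452, 3830.0 and 2865 in WT air. The air groups were the low ones in both genotypes, and the physioxia groups overlapped each other. Myb rose in WT physioxia, averaging 4782 ± 157 against 2977 ± 595 in WT air (SD, n = 4 each), a log2 difference of 0.70 ± 0.15 (SE, 95% interval 0.38 to 1.02, limma adjusted p = 0.0153), or 1.63-fold. Leaving out replicate 2 of WT air ended this call, at 0.62 with an adjusted p of 0.0543.

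In Tet2-deficient cells Myb averaged 5364 ± 617 in physioxia and 3596 ± 804 in air. The difference of 0.60 ± 0.15 (95% interval 0.27 to 0.92) had an unadjusted p of 0.00121 but a limma adjusted p of 0.421, in the comparison where limma called 0 genes. An exact two-sided permutation test of these 8 libraries gave an unadjusted p of 0.0286, the smallest that 70 arrangements allow. The interaction was -0.11 ± 0.21 (adjusted p = 0.875), with a 95% interval that spans 0. Between genotypes Myb differed by 0.16 ± 0.15 in physioxia (adjusted p = 0.358) and by 0.27 ± 0.15 in air (adjusted p = 0.11), the second passing at 0.39 (adjusted p = 0.0269) without replicate 3 of WT air.

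Hmga2 differed by genotype in both oxygen conditions. The gene (ENSMUSG00000056758, GRCm38 chr10:120361275-120476469, minus strand) was the least abundant of the set, with 38 to 271 reads per library. Its normalized counts were 214, 129.6, 175 and 190.0 in Tet2-deficient physioxia and 222, 153, 152 and 132 in Tet2-deficient air. They were 64.9, 53.5, 54.5 and 68.3 in WT physioxia and 74.0, 52.3, 82.6 and 36.4 in WT air. All 8 Tet2-deficient libraries lay above all 8 WT libraries, and the oxygen groups overlapped within each genotype. In physioxia Hmga2 averaged 177 ± 35.5 in Tet2-deficient cells against 60.3 ± 7.41 in WT cells, a log2 difference of 1.52 ± 0.25 (SE, 95% interval 0.99 to 2.06, limma adjusted p = 0.000165), or 2.88-fold. In air it averaged 165 ± 39.3 in Tet2-deficient cells against 61.3 ± 21.0 in WT cells, a difference of 1.45 ± 0.25 (95% interval 0.91 to 1.99, adjusted p = 0.000248), or 2.73-fold.

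Oxygen made no detectable difference to Hmga2 at this depth. Physioxia minus air came to 0.11 ± 0.25 in Tet2-deficient cells (95% interval -0.43 to 0.65, adjusted p = 1) and 0.04 ± 0.25 in WT cells (95% interval -0.50 to 0.57, adjusted p = 0.959). The antisense gene 1700006J14Rik shares 140 exon bases with Hmga2, and the sources used here do not state whether strand was used in counting. Its normalized counts ran opposite, at 21.1 ± 7.71 in Tet2-deficient physioxia and 215 ± 21.1 in WT physioxia, and at 18.1 ± 5.91 in Tet2-deficient air and 172 ± 20.4 in WT air (SD, n = 4 each). The log2 differences of 1700006J14Rik were -3.35 ± 0.27 in physioxia (limma adjusted p = 1.39e-07) and -3.22 ± 0.27 in air (adjusted p = 1.73e-07).

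**Figure D2:**
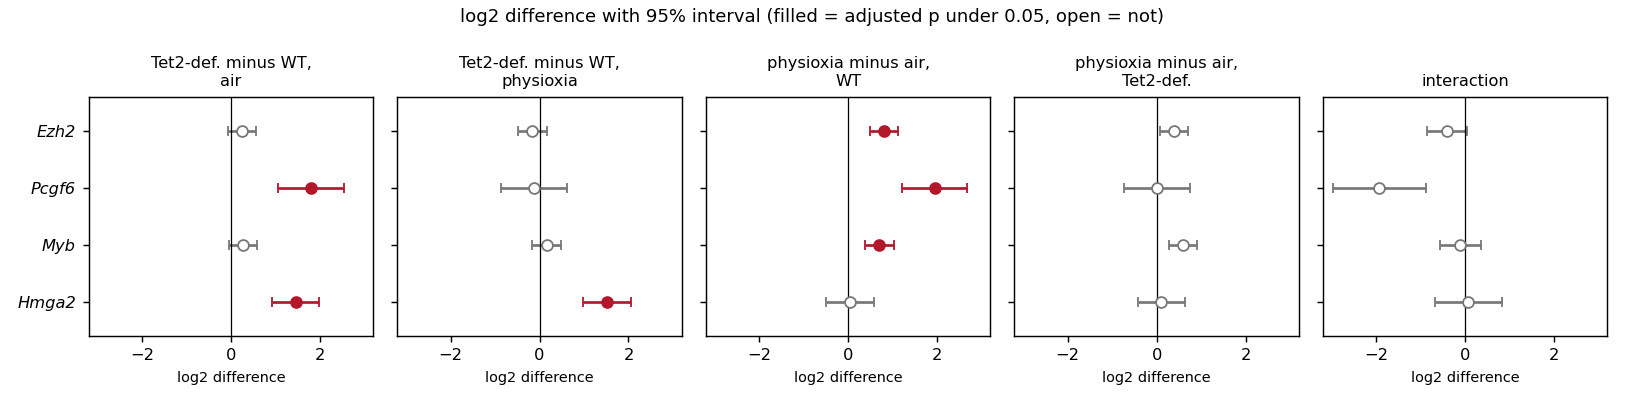
Log2 differences (horizontal axes) with 95% intervals for the 4 genes, one panel per comparison and the interaction at the right, with filled points for an adjusted p under 0.05. Oxygen in WT cells has 3 filled points, genotype in air 2, genotype in physioxia 1, and oxygen in Tet2-deficient cells and the interaction none.

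Levels of the 4 genes can be set beside each other per kilobase of exon. Myb was the highest in every group, with 600 normalized counts per kb in Tet2-deficient physioxia, 403 in Tet2-deficient air, 535 in WT physioxia and 333 in WT air. Ezh2 came next, with 415 in Tet2-deficient physioxia, 320.0 in Tet2-deficient air, 471 in WT physioxia and 266 in WT air. Myb and Ezh2 thus exceeded the other members in every group. Pcgf6 stood at 112 in Tet2-deficient physioxia, 121 in Tet2-deficient air, 129 in WT physioxia and 32.8 in WT air. Hmga2 stood at 26.2 in Tet2-deficient physioxia, 24.3 in Tet2-deficient air, 8.90 in WT physioxia and 9.06 in WT air. By group mean, Ezh2 ran from WT physioxia through Tet2-deficient physioxia and Tet2-deficient air to WT air, each neighbour overlapping the next. Myb ran from Tet2-deficient physioxia through WT physioxia and Tet2-deficient air to WT air, again with each neighbour overlapping the next. The libraries themselves were ordered alike for part of the set. Replicate 4 of Tet2-deficient air was the highest of its group for Ezh2, Pcgf6 and Myb and the lowest for Hmga2, and replicate 2 of WT physioxia was the highest of its group for Ezh2 and Pcgf6.

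The oxygen difference averaged over both genotypes was added after the data were seen. It was 0.60 ± 0.11 for Ezh2 (SE, limma adjusted p = 0.0074), 0.98 ± 0.25 for Pcgf6 (adjusted p = 0.0349), 0.65 ± 0.11 for Myb (adjusted p = 0.00679) and 0.07 ± 0.18 for Hmga2 (adjusted p = 0.922). In this average 3 of the 4 genes rose in physioxia, as did 3.42% of all tested genes, while 0.507% fell and 3.93% moved in either direction. The Pcgf6 average joins 1.94 ± 0.35 in WT cells with 0.02 ± 0.35 in Tet2-deficient cells, so it does not show a rise in both genotypes. If all other annotated genes are added to the adjustment as unchanged, the adjusted p becomes 0.0673 for Ezh2, 0.317 for Pcgf6 and 0.0618 for Myb.

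**Figure D3:**
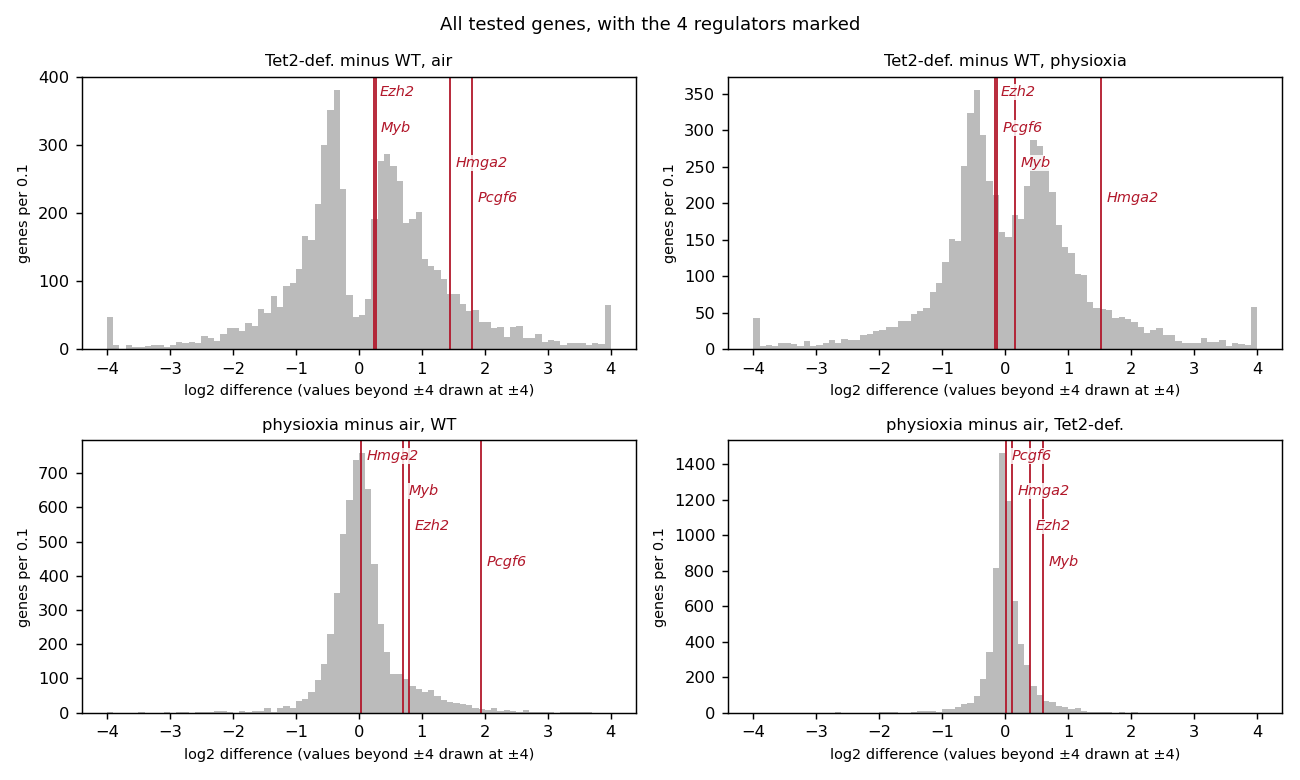
Histograms of the log2 differences of all 6110 tested genes in the 4 pairwise comparisons (horizontal axis, values beyond ±4 drawn at ±4; vertical axis, genes per 0.1), with lines at Ezh2, Pcgf6, Myb and Hmga2. Few genes lie near 0 in the genotype comparison in air, and Pcgf6 lies in the right tail for oxygen in WT cells.

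Whether the rise of Ezh2, Pcgf6 and Myb in WT physioxia passed the threshold depended on which genes and libraries entered. With all other annotated genes added to the adjustment as unchanged, the adjusted p was 0.0876 for Ezh2, 0.0868 for Pcgf6 and 0.139 for Myb, with differences as before. Replicates 1 and 2 of WT air had the highest monocyte and T cell marker levels of their group. Replicates 1 and 2 of WT physioxia also had the highest of theirs. With these kept and replicates 1 and 2 of WT air left out, 0 genes passed by limma (1029 at an unadjusted p under 0.05). The differences were then 0.78 for Ezh2 (adjusted p = 0.128), 1.94 for Pcgf6 (adjusted p = 0.127) and 0.53 for Myb (adjusted p = 0.170). This fit had fewer WT air libraries, and the part of that in the lost calls was not tested. In this comparison 0 of 15 erythroid, 0 of 7 monocyte and macrophage, 0 of 11 T and NK cell and 0 of 8 basophil and mast cell markers were called, and 1 of 8 neutrophil markers, Camp, was higher in WT physioxia, where 5.76% of all tested genes were called. All 8 neutrophil markers had a positive difference, with a median of 0.58 against 0.01 over all tested genes. The mean log2 level of the neutrophil markers ranged from 8.73 to 9.64 in WT physioxia and from 7.56 to 9.39 in WT air, and their part in the differences of Ezh2, Pcgf6 and Myb was not tested. The mean log2 level of the erythroid markers ranged from 9.83 to 10.8 in WT physioxia and from 9.55 to 10.5 in WT air.

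Beyond Ezh2, few PRC2 genes were in the table. It held 6 of the 14 listed, namely Epop, Ezh2, Jarid2, Lcor, Lcorl and Phf19, all accessory subunits except Ezh2. Their median difference for oxygen in WT cells was -0.13, against 0.01 over all tested genes. Ezh2 alone of the 6 passed, beside 5.76% of all tested genes. Epop, a PRC2 subunit that links the complex to elongin, had a difference of 1.27 ± 0.37 (SE, adjusted p = 0.0556). Between genotypes in air 1 of the 6 was higher in Tet2-deficient cells and 4 were lower, beside 42.1% and 37.4% of all tested genes. The share called in either direction was thus near the 79.5% of the table, and the median was -0.44 against 0.24. Phf19, a Polycomb-like protein that recruits PRC2, averaged 178 ± 21.9 in Tet2-deficient air and 336 ± 50.4 in WT air, a difference of -0.90 ± 0.17 (limma adjusted p = 0.000392). Jarid2, which tethers PRC2 to chromatin, differed by -0.48 ± 0.15 (adjusted p = 0.012) and Lcor by -0.51 ± 0.15 (adjusted p = 0.00747). In physioxia Phf19 was the one PRC2 gene called, at -0.72 ± 0.17 (adjusted p = 0.00204), where 69.4% of all tested genes were called. The PRC2 median was -0.14 against 0.06 over all tested genes.

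Of 35 listed PRC1 genes, 17 were in the table. For oxygen in WT cells 2 of the 17 rose, Pcgf6 and E2f6, beside 4.91% of all tested genes. The median over the list was -0.15. E2f6, the repressor of the E2F family that shares a PRC1 form with Pcgf6, averaged 345 ± 174 in WT physioxia and 140.3 ± 29.8 in WT air, a difference of 1.19 ± 0.31 (SE, limma adjusted p = 0.035). Its genotype difference in air was 0.99 ± 0.31 (adjusted p = 0.0113) and in physioxia 0.29 ± 0.31 (adjusted p = 0.414). The same PRC1 form contains Mga, which differed by -0.15 ± 0.15 for oxygen in WT cells (adjusted p = 0.624) and by 0.55 ± 0.15 between genotypes in physioxia (adjusted p = 0.00474). Tfdp1, the partner that E2F proteins bind DNA with, had an oxygen difference of 0.40 ± 0.16 in WT cells (adjusted p = 0.159) and a genotype difference in air of 0.64 ± 0.16 (adjusted p = 0.00276).

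Between genotypes PRC1 genes were called in both directions, as was the table as a whole. In air 6 of 17 were higher in Tet2-deficient cells and 8 lower, beside 42.1% higher and 37.4% lower of all tested genes, and the median was -0.27 against 0.24. In physioxia 4 were higher and 5 lower, beside 35.9% and 33.6%, and the median was -0.13 against 0.06. Cbx6, a chromodomain subunit, was higher in Tet2-deficient cells by 1.92 ± 0.30 in physioxia (SE, limma adjusted p = 0.000107) and by 1.40 ± 0.30 in air (adjusted p = 0.00125). Yaf2, a subunit of variant PRC1, was lower, at -1.11 ± 0.13 in physioxia (adjusted p = 6.37e-06) and at -1.14 ± 0.13 in air (adjusted p = 4.61e-06), and its relative Rybp was lower, at -0.83 ± 0.22 in both conditions. Auts2, which turns the PRC1 form it joins towards activation, was lower, at -1.88 ± 0.42 in physioxia (adjusted p = 0.00151) and at -2.50 ± 0.42 in air (adjusted p = 0.000176). Rnf2, the catalytic RING subunit, was lower, at -0.38 ± 0.09 in physioxia (adjusted p = 0.0028) and at -0.27 ± 0.09 in air (adjusted p = 0.0176). In Tet2-deficient cells 0 of the 6 PRC2 and 0 of the 17 PRC1 genes passed for oxygen, beside 0% of all tested genes.

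The remaining PRC1 and PRC2 genes had smaller or single differences. In air Cbx2 at -0.90, Bcor at -0.67, Phc3 at -0.58 and Lcorl at -0.39 were lower in Tet2-deficient cells, and Pcgf3 at 0.71, Scmh1 at 0.41 and Epop at 0.85 were higher. In physioxia Scmh1 at 0.51 and Bcorl1 at 0.93 were higher in Tet2-deficient cells. Fbrsl1 passed in no comparison. Of 13 listed genes that oppose Polycomb marks 2 were in the table. Ogt, the O-GlcNAc transferase that works with the H2A deubiquitinase, was higher in Tet2-deficient cells by 0.56 ± 0.14 in physioxia (adjusted p = 0.00295) and by 0.38 ± 0.14 in air (adjusted p = 0.0222). Kdm6b, an H3 lysine 27 demethylase, differed by -0.27 ± 0.38 in physioxia (adjusted p = 0.547) and was lower, at -1.07 ± 0.38 in air (adjusted p = 0.0208).

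**Figure D4:**
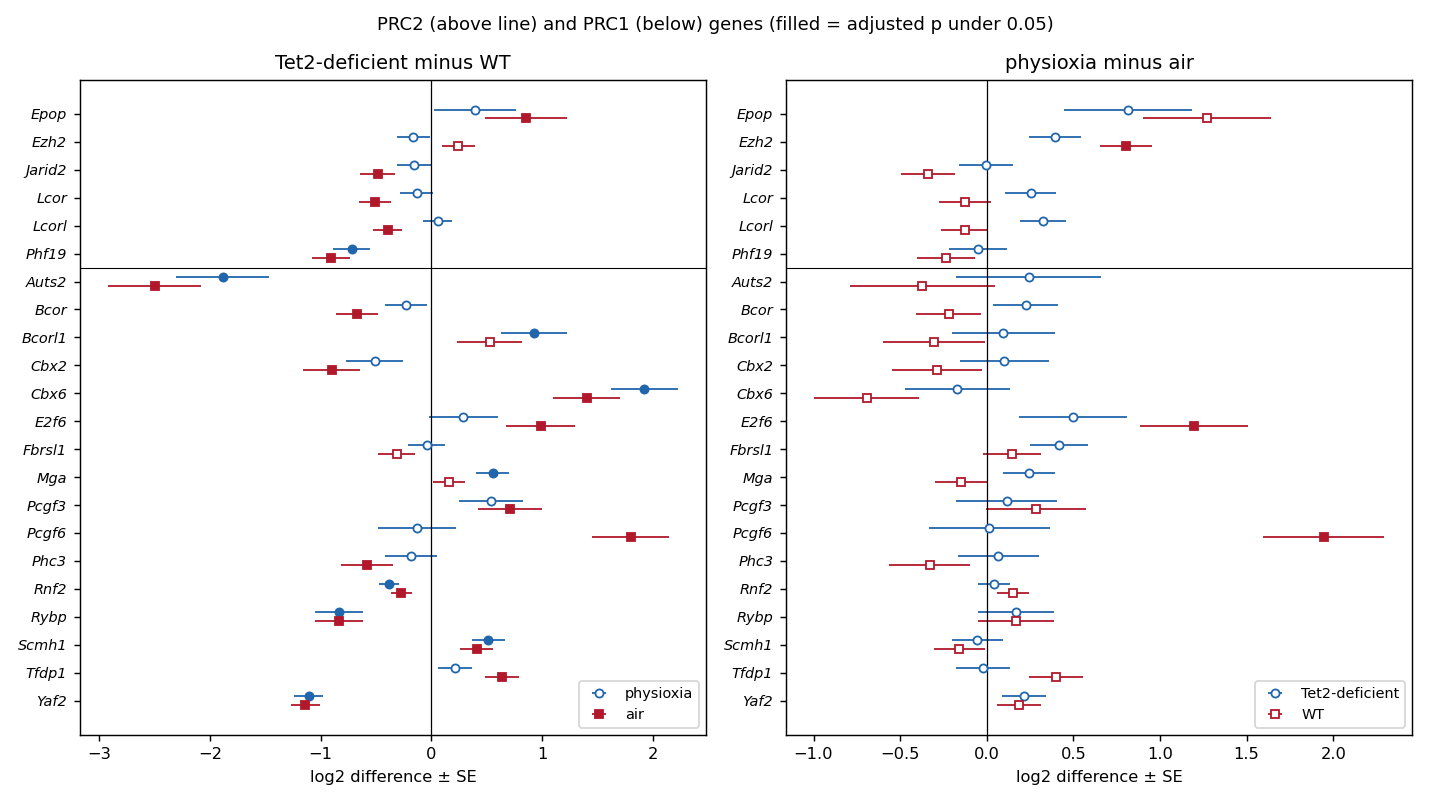
Log2 differences ± SE (horizontal axes) of PRC2 genes above the line and PRC1 genes below it, for Tet2-deficient minus WT in physioxia and air (left) and physioxia minus air in Tet2-deficient and WT cells (right), with filled symbols for an adjusted p under 0.05. Filled symbols lie on both sides of 0 for genotype, while for oxygen they are Ezh2, E2f6 and Pcgf6 in WT cells.

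Of 14 listed genes of the Myb family, its coactivators and its targets, 6 were in the table. Of these, 2 rose in WT physioxia, Myb and Mybl2, beside 4.91% of all tested genes. Mybl2, the family member that drives genes of late cell cycle, averaged 2386 ± 106 in WT physioxia and 768 ± 313 in WT air, a difference of 1.72 ± 0.38 (SE, limma adjusted p = 0.0173). It was also higher in Tet2-deficient air than in WT air, by 1.13 ± 0.38 (adjusted p = 0.0161), and differed by 0.13 ± 0.38 between genotypes in physioxia (adjusted p = 0.773). Kit, the stem cell factor receptor, was higher in Tet2-deficient cells by 1.04 ± 0.18 in physioxia (adjusted p = 0.000242) and by 0.71 ± 0.18 in air (adjusted p = 0.00361). Myc, the growth regulator, was higher by 0.86 ± 0.11 in physioxia (adjusted p = 2.1e-05) and by 0.78 ± 0.11 in air (adjusted p = 4.64e-05). Elane, the neutrophil elastase gene, was lower, at -0.49 ± 0.16 in physioxia (adjusted p = 0.0126) and at -0.51 ± 0.16 in air (adjusted p = 0.0102), but under quantile scaling its sign turned in both, to 0.14 and 0.10. The list's median for oxygen in WT cells was -0.10, and between genotypes it was 0.17 in physioxia and 0.49 in air.

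Around Hmga2 the table held 3 of 13 listed genes of the Lin28b and let-7 axis. Hmga1, the close relative that binds the same AT-rich DNA, ran opposite to Hmga2. It averaged 3053 ± 419 in Tet2-deficient physioxia and 6822 ± 529.9 in WT physioxia, a difference of -1.17 ± 0.11 (SE, limma adjusted p = 5.4e-07). In air it averaged 3144 ± 325 in Tet2-deficient cells and 6885 ± 311 in WT cells, a difference of -1.13 ± 0.11 (adjusted p = 7.07e-07). Arid3a, a DNA-binding protein of the same axis, differed by -0.01 ± 0.26 in physioxia (adjusted p = 0.966) and was lower, at -0.75 ± 0.26 in air (adjusted p = 0.0166). For oxygen 0 of the 3 passed in either genotype, beside 5.76% of all tested genes in WT cells and 0% in Tet2-deficient cells.

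Of 29 other listed self-renewal regulators 13 were in the table. In physioxia 7 were higher in Tet2-deficient cells and 2 lower, beside 35.9% higher and 33.6% lower of all tested genes, so the share called in either direction was near the 69.4% of the table; the median was 0.58 against 0.06. In air 11 were higher and 2 lower, beside 42.1% and 37.4%, with a median of 0.89 against 0.24. Gfi1b, a transcriptional repressor active in stem cells and the erythroid lineage, was higher by 1.20 ± 0.18 in physioxia (SE, limma adjusted p = 7.55e-05) and by 1.38 ± 0.18 in air (adjusted p = 2.1e-05). Mllt3, which maintains human stem cells, was higher by 1.02 ± 0.19 in physioxia (adjusted p = 0.00046) and by 1.27 ± 0.19 in air (adjusted p = 7.36e-05). Lower were Zfx, a zinc finger factor of stem cell self-renewal, at -0.59 ± 0.11 in physioxia (adjusted p = 0.000376) and -0.52 ± 0.11 in air (adjusted p = 0.000975), and Hoxa7, at -0.30 ± 0.13 in physioxia (adjusted p = 0.0485) and -0.39 ± 0.13 in air (adjusted p = 0.0139). For oxygen in WT cells 1 of the 13 rose, Lmo2, beside 4.91% of all tested genes. Lmo2, a bridging factor of blood stem cells, averaged 8289 ± 634 in WT physioxia against 3925 ± 1624 in WT air, a difference of 1.20 ± 0.28 (adjusted p = 0.0223).

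E2F factors induce genes of S phase, and Ezh2 is among their known targets. Of 30 listed S phase genes 10 were in the table. For oxygen 0 of the 10 passed in Tet2-deficient cells (median -0.07, beside 0% of all tested genes) or WT cells (median -0.05, beside 5.76%). Between genotypes 7 were higher in Tet2-deficient physioxia, beside 35.9% of all tested genes (median 0.68 against 0.06), and 9 in Tet2-deficient air, beside 42.1% (median 0.72 against 0.24). Among them was Ccne1, cyclin E1, at 2.15 ± 0.52 (SE, limma adjusted p = 0.0026) in physioxia and 3.32 ± 0.52 (adjusted p = 9.88e-05) in air. Of 6 listed cell cycle inhibitors, some of which Polycomb is known to silence, the table held Cdkn1c and Cdkn2c. Both were called higher in WT physioxia than in WT air, beside 4.91% of all tested genes. Cdkn2c averaged 954 ± 325 in WT physioxia and 294 ± 55.9 in WT air, a rise of 1.64 ± 0.43 (adjusted p = 0.0372). Cdkn1c also rose, at 37.1 ± 35.8 in WT physioxia and 4.18 ± 4.00 in WT air (SD, n = 4 each), a difference of 2.79 ± 0.62 (adjusted p = 0.0169) at very low counts.

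Markers of other cells moved with genotype, beside the differences of Hmga2 and of the Polycomb and self-renewal genes. All 15 erythroid markers were higher in Tet2-deficient cells in both oxygen conditions, beside 35.9% of all tested genes in physioxia and 42.1% in air. Their median difference was 1.89 in physioxia and 2.25 in air. Their mean log2 level ranged from 11.5 to 13.0 in Tet2-deficient physioxia and from 9.83 to 10.8 in WT physioxia, and from 11.6 to 13.1 in Tet2-deficient air and from 9.55 to 10.5 in WT air. Of the 8 neutrophil markers 7 were lower in both conditions, and of the 11 T and NK cell markers 9 were lower in physioxia and 10 in air, beside 33.6% and 37.4% of all tested genes. The T cell marker Cd4 went the other way and was higher in Tet2-deficient cells, by 1.51 ± 0.35 in physioxia (SE, limma adjusted p = 0.00184) and by 2.08 ± 0.35 in air (adjusted p = 0.000164). Of 7 monocyte and macrophage markers 6 were lower in physioxia and 7 in air, and of 8 basophil and mast cell markers 8 in physioxia and 7 in air. The B cell list had 1 gene in the table, Vpreb1, which was lower in physioxia at -1.15 ± 0.27 (limma adjusted p = 0.00225). All 5 LSK markers in the table were higher in both oxygen conditions, beside 35.9% of all tested genes in physioxia and 42.1% in air. No marker in the table was at 0 in any library. With the erythroid mean as a covariate, the Hmga2 difference was 2.13 in both oxygen conditions (adjusted p = 0.00198 in physioxia and 0.00426 in air). The Ezh2 and Pcgf6 values of this fit stand beside their genotype differences above, and Myb differed by 0.09 in physioxia (adjusted p = 0.814) and by 0.19 in air (adjusted p = 0.677). Since the erythroid means of the genotypes did not overlap, this fit cannot separate genotype from erythroid level. The part of other cell types in the genotype differences was not tested beyond it.

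The genes most like each member over the 16 libraries were found by Pearson's r of log2 values among 5368 named genes, as a description. Many genes were closely alike, with r over 0.9 for 42 genes with Ezh2, 56 with Pcgf6, 22 with Myb and 70 with Hmga2. The most alike to Pcgf6 were Cebpd and Rcc1l (r = 0.97 each), then Trim27, Srm and Stard7 (0.96 each). Cebpd, a C/EBP transcription factor, averaged 844 ± 149 in Tet2-deficient physioxia, 1098 ± 583 in Tet2-deficient air, 888 ± 449.7 in WT physioxia and 205 ± 75.8 in WT air, so it too was lowest in WT air. For Ezh2 they were Ccz1 (0.98), Snf8 and Ppp1cb (0.96 each), Prmt9 and Ptges2 (0.95 each). Ccz1, a lysosomal trafficking factor, averaged 1170.1 ± 206 in Tet2-deficient physioxia, 831 ± 263 in Tet2-deficient air, 1395 ± 568 in WT physioxia and 591 ± 84.6 in WT air.

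For Myb the most alike were Msl3l2 (0.95), Uso1 and Eif3b (0.94 each), Vac14 and Capns1 (0.92 each). Eif3b, a subunit of a translation initiation factor, averaged 28042 ± 1009 in Tet2-deficient physioxia, 11822 ± 11279 in Tet2-deficient air, 20623 ± 1501 in WT physioxia and 2352 ± 1411 in WT air, a wider swing than that of Myb. For Hmga2 they were Ttll11, Morn4, Maml2, Tcaf1 and Cd200, each at 0.95, and all were higher in Tet2-deficient libraries. Ttll11, a tubulin-modifying enzyme gene, averaged 123 ± 24.1 in Tet2-deficient physioxia, 119 ± 37.8 in Tet2-deficient air, 3.47 ± 0.956 in WT physioxia and 2.26 ± 1.97 in WT air. After the group means were taken out, the closest to Ezh2 were Snf8 and Ccz1 (0.95 each) and Hnrnpab (0.93), and to Pcgf6 Trim27 (0.94), Cebpd and Polr2m (0.93 each). The closest to Myb were then Smoc2 (0.89), Uso1 (0.88) and Msl3l2 (0.87), and to Hmga2 Nt5e (0.78), Hoxb5 (0.77) and Kcnn1 (0.76).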

How the data were processed

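Bulk RNA sequencing of 16 libraries was used, from low-input libraries sequenced as read pairs, with about 30 M reads per sample per the labels. The deposited table holds a signal made by the authors: gene read counts divided by 1 size factor per library. FastQC, cutadapt, STAR, HTSeq, DESeq2 and GRCm38 are named, without roles or versions, per the submitters' processing notes. Every value was a whole number of reads within 0.01 (100% of values), and recovered reads entered the count tests used as alternatives. For replicate 2 of WT air and replicate 3 of Tet2-deficient air, whose size factors are near 1, this cannot be told from rounding, and edgeR was rerun without them. Symbols came from the GENCODE annotation of GRCm38, matched by identifier for 6281 of 6288 genes. Coordinates of genes are from that annotation and promoter sequences from RefSeq.

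Tests covered the 6110 genes that reached a normalized count of 10 in 4 or more libraries, and 178 genes were not tested. Values were taken as log2(normalized count + 1) and modelled in limma 3.58.1 under R 4.3.3 with a trend on intensity, 1 mean per group over all 16 libraries and no covariate. Tests were two-sided and called below 0.05 after Benjamini-Hochberg adjustment. Fold changes are on the log2(value + 1) scale, which understates those of low genes. Errors are SD for levels and SE for differences. Alternatives were edgeR 4.0.16 quasi-likelihood, DESeq2 1.42.0, TMM and quantile scaling, pseudocounts of 0.5 and 5, other filters, groups fitted in pairs, exact permutation, an erythroid covariate, replicate blocks, omitted libraries, and all 55536 annotated genes in the adjustment. The fits were tested on simulated data.

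Members, lists and alternatives were chosen with earlier results of these data known. Named genes were the 4 members and Tet2, the PRC1 and PRC2 genes in the table, up to 6 called genes of each other list by smallest p, and the genes most like each member. Epop, Arid3a and other members of short lists are given also where they did not pass. 1700006J14Rik was named after its values were seen, and some genes the rule covers are not reported here. The labels say that enriched cells were divided between oxygen conditions. Deviations of same-numbered libraries correlated at 0.162 to 0.332 in WT cells, over 0.1 in each of the 4 pairs. Those numbers were taken as pairs only in the alternatives with replicate blocks, and the main limma tests for oxygen used no pairs. In Tet2-deficient cells they ran from -0.275 to 0.322, and across genotypes they did not pair either.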

Additional observations from a re-analysis of the deposited data

How the results depend on the processing

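Over the alternatives 99 of the values for counts of called genes stayed within 1.5 times and 22 did not, and for single genes 453 kept their direction and side of the threshold, 31 changed sign, 7 newly passed and 9 no longer passed; the causes were not tested. Hmga2 between genotypes passed under each alternative run. For oxygen in WT cells Hmga2 was near 0 and turned to -0.067 with edgeR, -0.085 with DESeq2, -0.039 with quantile and -0.012 with TMM scaling and -0.13 with edgeR without the 2 libraries of size factor near 1. For oxygen in Tet2-deficient cells Pcgf6 turned to -0.14, -0.12, -0.045, -0.027 and -0.12 in the same order. Quantile scaling moved the median of all genes between genotypes in air by -0.12 and the split to 1984 higher and 2303 lower (46.3% higher), and for oxygen in WT cells the higher share was 75.5% (244 higher and 79 lower) against 85.2%. It ended 1 PRC2 and 3 PRC1 calls between genotypes in air. It also gave 0.044 for the Myb interaction and 0.38 for Myb between genotypes in physioxia (adjusted p = 0.0356).

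Without Tet2-deficient air replicates 3 and 4, which had the highest erythroid marker levels of their group, 152 genes passed for oxygen in Tet2-deficient cells, including Ezh2 at 0.65 (adjusted p = 0.0365) and Myb at 0.84 (adjusted p = 0.00908), with Hmga2 at -0.078. Ezh2 between genotypes in air was then -0.015, the interactions of Myb and Hmga2 0.14 and -0.11, and 2760 genes passed between genotypes in air. Without WT air replicates 1 and 2 oxygen in WT cells had 0 genes past the threshold, with Ezh2 at 0.78, Pcgf6 at 1.94 and Myb at 0.53, and the interactions of Myb and Hmga2 were 0.067 and -0.016. Counting all annotated genes left 2477 genes between genotypes in physioxia, 2432 in air and 0 for oxygen in WT cells (Ezh2 0.80, Pcgf6 1.94, Myb 0.70). With the erythroid covariate 1512 genes passed between genotypes in physioxia and 901 in air, and Ezh2 was -0.63 in physioxia (adjusted p = 0.0428) and -0.28 in air, and Pcgf6 1.53 in air. Without this covariate 4243 genes passed in physioxia and 4858 in air. Genotype and erythroid level cannot be separated in the covariate fit, because the erythroid means of the genotypes did not overlap.

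For oxygen in WT cells DESeq2 gave 548 genes and edgeR without the 2 libraries 84, with Myb at 0.56 (adjusted p = 0.0864). For oxygen in Tet2-deficient cells, where limma and edgeR gave 0 genes and 280 had an unadjusted p under 0.05, DESeq2 gave 8 and a pseudocount of 5 gave 1. Myb at 0.60 was counted as newly passing by an exact permutation test (unadjusted p = 0.0286, the smallest that 70 arrangements allow). For the interaction, with 0 genes by limma and edgeR and 546 at an unadjusted p under 0.05, DESeq2 gave 10 and Pcgf6 at -2.04. The replicate block within genotype gave 462 genes for oxygen in WT cells, with adjusted p of 0.0132 for Ezh2, 0.0117 for Pcgf6 and 0.0144 for Myb; the replicate block over all libraries gave 1 gene for oxygen in Tet2-deficient cells, and neither block changed the call of any of the 4 genes.

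With single libraries left out, oxygen in WT cells gave 128 to 554 genes, against 352: 128 without WT physioxia replicate 1 or WT air replicate 4, 165, 227 and 554 without WT physioxia replicates 2, 3 and 4, and 152 without WT air replicate 2. The range was 3842 to 4306 genes between genotypes in physioxia, 4050 to 4581 in air, and 0 to 1 for oxygen in Tet2-deficient cells and for the interaction. Ezh2 ranged from -0.23 to -0.02 between genotypes in physioxia, 0.14 to 0.34 in air, 0.66 to 0.87 for oxygen in WT cells, 0.30 to 0.50 in Tet2-deficient cells and -0.50 to -0.27 in the interaction. For Pcgf6 these ranges were -0.42 to 0.057, 1.55 to 2.16, 1.76 to 2.23, -0.35 to 0.26 and -2.29 to -1.68. For Myb they were 0.09 to 0.21, 0.13 to 0.39, 0.62 to 0.83, 0.51 to 0.73 and -0.24 to 0.027. For Hmga2 they were 1.43 to 1.67, 1.23 to 1.62, -0.19 to 0.20, 0.01 to 0.26 and -0.091 to 0.30. Hmga2 rests on as few as 38 reads in a library, which limits its precision.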
